A study of Mus musculus with 9 samples.

Results

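Plasminogen activation was described through 9 genes, chosen by name from 22092 genes with counts: the activators Plat and Plau, the activator receptor Plaur, the serpins Serpine2, Serpini1, Serpind1 and Serpinf1, the thrombin receptor F2r and the coagulation starter F3. Their mRNAs were measured by translating ribosome affinity purification (TRAP), in which tagged ribosomes are immunoprecipitated with the mRNAs attached to them. All mice were 2 months old and of the strain Aldh1L1 JD130, genotype tg:Aldh1L1-L10aGFP, in which the Aldh1l1 promoter drives a GFP-tagged ribosomal protein L10a in astrocytes. For whole astrocyte TRAP, 3 libraries were made from 1 brain each, without the choroid plexus, and for endfeet TRAP 6 libraries were made from purified brain vessels, which keep the astrocyte endfeet attached, pooled from 8 mice each. The tag was in the ribosomes of both groups, no library without the tag was analysed here, and the groups also differ in the tissue and in the number of animals behind a library. The comparison is meant to set mRNAs on astrocyte ribosomes in perivascular endfeet against those of the whole cell. What was compared is the RNA recovered from purified vessels and from whole brain. The RNA from vessels also held markers of vessel cells, given below.

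Plasminogen is cleaved to plasmin, a protease that dissolves fibrin, by tissue plasminogen activator and by urokinase, and serpins hold these activators in check by forming a stable complex with them. In the brain the same proteases also act on growth factor precursors, receptors and matrix proteins, and tissue plasminogen activator is studied for its effects on the vessel wall and on synapses. Thrombin, a protease of the coagulation cascade that tissue factor starts, acts on cells through protease-activated receptors.

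Promoter sequences are shown for 4 members that stood on opposite sides of the comparison below, F3, which was lower in endfeet, and F2r, Serpind1 and Serpinf1, which were higher. The sequences are RefSeq's (GRCm38.p6), 5′ to 3′ on the strand of the gene, up to 250 bases before its start. Capitals mark the letters of a GC box (GGGCGG, bound by Sp1 family factors) or an AP-1 site (TGAGTCA), both searched on either strand. The last 21 bases for F2r and 78 for Serpinf1 lie within the GENCODE gene and were left out. They stand at chr3:121723287-121723536 (plus strand) for F3, chr13:95618488-95618716 (minus strand) for F2r, chr16:17331121-17331370 (plus strand) for Serpind1 and chr11:75422702-75422873 (minus strand) for Serpinf1.
F3: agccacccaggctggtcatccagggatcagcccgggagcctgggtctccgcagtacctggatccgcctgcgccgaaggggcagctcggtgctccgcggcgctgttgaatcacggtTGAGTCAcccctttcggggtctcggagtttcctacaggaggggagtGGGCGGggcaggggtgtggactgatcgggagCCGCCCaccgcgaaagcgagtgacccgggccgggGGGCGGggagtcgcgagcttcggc
F2r: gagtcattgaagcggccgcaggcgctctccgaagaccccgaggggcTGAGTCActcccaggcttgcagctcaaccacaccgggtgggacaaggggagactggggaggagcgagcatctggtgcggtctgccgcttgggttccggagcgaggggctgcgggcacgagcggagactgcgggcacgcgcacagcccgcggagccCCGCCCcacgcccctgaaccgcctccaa
Serpind1: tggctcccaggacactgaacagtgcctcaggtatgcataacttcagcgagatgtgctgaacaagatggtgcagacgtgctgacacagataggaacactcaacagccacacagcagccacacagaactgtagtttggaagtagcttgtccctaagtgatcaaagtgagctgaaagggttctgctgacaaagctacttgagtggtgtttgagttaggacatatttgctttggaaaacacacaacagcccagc
Serpinf1: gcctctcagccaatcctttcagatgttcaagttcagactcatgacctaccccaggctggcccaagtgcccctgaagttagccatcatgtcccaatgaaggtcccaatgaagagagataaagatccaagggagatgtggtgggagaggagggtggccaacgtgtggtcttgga
The F3 promoter held 3 GC boxes and 1 AP-1 site, the latter between 135 and 129 bases before the RefSeq start, and the F2r promoter held 1 of each, with the AP-1 letters 204 to 198 bases before the RefSeq start, counting the 21 bases not shown. Serpind1 and Serpinf1 held neither. Of the 9 members 7 have a promoter in the RefSeq table, and among the others of these, Plaur held 3 GC boxes and 1 AP-1 site, Serpine2 held 6 GC boxes, some of them overlapping, and Serpini1 held none. A TATA box (TATAAA) was found in 0 of the 7. Of all 32851 promoters of this length, 32.7% held the GC box, 4.46% the AP-1 site and 12.4% the TATA box. F3 and F2r, which both held the AP-1 letters, differed in opposite directions between the groups. A link between these letters and the levels was not tested.

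Summed over genes, whole astrocyte libraries held 35984571 to 43521475 counts and endfeet libraries 2319475 to 13450533. Levels are given as normalized CPM, that is counts scaled to the library size after TMM normalization. A count of 3, taken as the smallest amount shown, stood for 0.0658 to 0.0811 normalized CPM at whole astrocyte depths and 0.197 to 1.37 at endfeet depths, with endfeet library 6 the shallowest. The common dispersion was 0.0142 within whole astrocyte TRAP and 0.725 within endfeet TRAP, so the endfeet libraries scattered far more.

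Of the 8 members that passed the filter on low counts, 5 were higher in endfeet TRAP (Plat, Plau, Serpinf1, Serpind1 and F2r), 1 was lower (F3), and 2 did not pass the test (Serpine2 and Serpini1), with p-values from the quasi-likelihood test of edgeR, adjusted by Benjamini-Hochberg over all genes tested, and a threshold of 0.05. Plaur had too few counts to be tested. Plau, at 0.159 to 0.329 normalized CPM in whole astrocyte libraries, passed the filter only through endfeet libraries, where it was higher. It could therefore hardly have been called lower, and its place among the 5 adds no support. Of all 14427 genes tested, 20.7% were higher and 13.9% lower. The median log2 fold change was 3.08 over these 8 members and 0.0965 over all genes. All endfeet libraries were above all whole astrocyte libraries for 4 members and below them for 1, against 18.9% and 23.8% of all genes tested.

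Plat encodes tissue plasminogen activator, a secreted serine protease, and lies at chr8:22757747-22782844 (mm10) with 14 exons. Its normalized CPM was 7.22, 8.39 and 9.37 in whole astrocyte libraries 1 to 3, and 82.8 at the lowest (library 5), 201 at the median and 443 at the highest (library 1) in endfeet libraries. Every endfeet library was therefore well above every whole astrocyte library, although the endfeet libraries spread 5.35-fold among themselves. The means were 8.33 ± 1.08 (SD, n = 3) and 239 ± 127 (SD, n = 6), a 28.7-fold ratio, and the log2 fold change was 4.84 (SE 0.542, adjusted p = 2.28e-05). With single libraries left out the log2 fold change stayed between 4.56 and 4.95, and Plat passed the test each time.

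Plau encodes urokinase, the other activator, at chr14:20836660-20843385. It was rare in both groups, with 9, 6 and 15 raw counts in the whole astrocyte libraries and between 0 and 93 in the endfeet libraries. The normalized CPM was 0.243, 0.159 and 0.329 in whole astrocyte libraries, and 0 at the lowest (library 1), 4.10 at the median and 10.05 at the highest (library 6) in endfeet libraries. Endfeet libraries 2 to 6 were above all whole astrocyte libraries and library 1 was at 0, so that the groups overlapped. In library 1, however, 3 counts stand for 0.563 normalized CPM, above every whole astrocyte value. The log2 fold change of Plau was 4.12 (SE 1.41, adjusted p = 0.0375). The call was lost without whole astrocyte library 1, 2 or 3 (adjusted p = 0.139, 0.158 and 0.125), without endfeet library 3 or 5 (0.0535 and 0.0526), and without the filter on low counts (0.0518).

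Plaur, at chr7:24462484-24475967, encodes the urokinase receptor, which is held on the cell surface by a lipid anchor. Its raw counts were 9, 15 and 11 in whole astrocyte libraries, and in endfeet libraries 0 in libraries 1, 2 and 6, 9 in library 4, 7 in library 5 and 117 in library 3. Endfeet library 3 stood alone at 7.69 normalized CPM, against at most 0.397 in a whole astrocyte library. The whole astrocyte mean of 0.294 was below the 3 counts that the endfeet libraries at 0 could show (0.345 to 1.37 normalized CPM), so that a difference in these was not detectable. Without the filter the log2 fold change was 2.31 (SE 1.83, adjusted p = 0.357), and with endfeet libraries 4 to 6 only, which leaves out library 3, it was 0.60 (SE 0.799, adjusted p = 0.576).

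**Figure D1:**
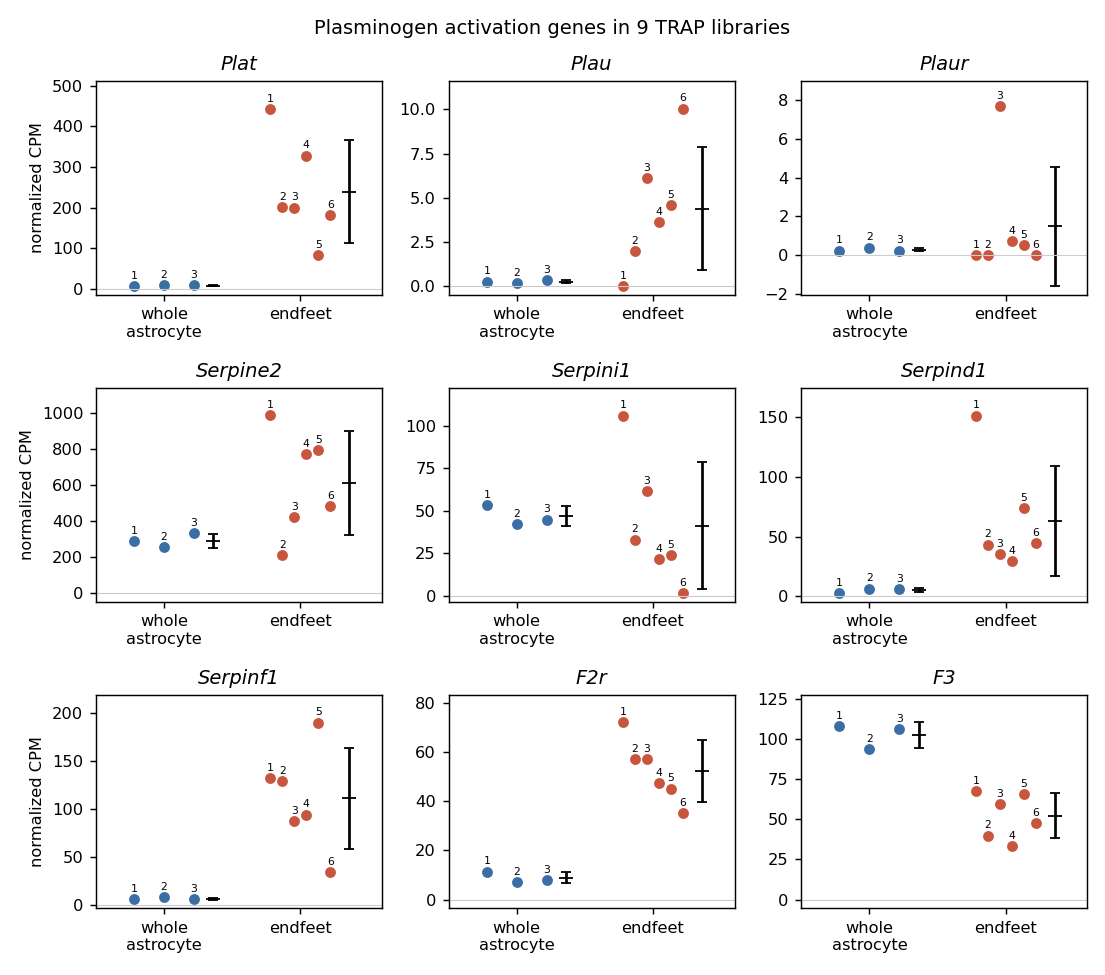
Normalized CPM (linear axes, each with its own range) of the 9 members in the 3 whole astrocyte (blue) and 6 endfeet (red) TRAP libraries, numbered by library, with the mean and SD of each group in black. Plat, Serpind1, Serpinf1 and F2r are above all whole astrocyte libraries in every endfeet library, F3 is below them, and the groups overlap for the other 4.

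Serpine2 encodes protease nexin-1, a serpin that inhibits thrombin, urokinase and tissue plasminogen activator, and was the most abundant member. It lies at chr1:79794197-79858696. The normalized CPM was 286, 252 and 330 in whole astrocyte libraries, and 209 at the lowest (library 2), 625 at the median and 986 at the highest (library 1) in endfeet libraries. All endfeet libraries but library 2 were above the whole astrocyte libraries, and library 2 was below them. The log2 fold change was 1.07 (SE 0.412), and the adjusted p of 0.0596 missed the threshold. The call was gained without endfeet library 2 (log2 fold change 1.31, adjusted p = 0.00903), with endfeet libraries 4 to 6 only (0.0103), with DESeq2 (0.0421) and with group-weighted limma voom (0.00548). In edgeR it was not gained with the size factors of DESeq2 (0.0565) or a filter of 1 count in total (0.0833) or 10 per library (0.0636). Nor was it with the series of file numbers as a covariate (0.0637) or counts summed over transcripts (0.110). With any other single library left out the adjusted p was 0.0542 to 0.195.

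Serpini1 encodes neuroserpin, a serpin that inhibits tissue plasminogen activator and is known from neurons, and lies at chr3:75557547-75643495. Its normalized CPM was 53.4, 42.3 and 44.9 in whole astrocyte libraries, and 1.83 at the lowest (library 6), 28.4 at the median and 106.0 at the highest (library 1) in endfeet libraries. Endfeet libraries 1 and 3 were above the whole astrocyte libraries and the other 4 below, and the lowest of these rested on 4 raw counts. The log2 fold change was -0.18 (SE 0.750, adjusted p = 0.875), with a 95% interval from -1.65 to 1.29 that holds 0. With endfeet libraries 4 to 6 only it was -1.68 (adjusted p = 0.112) and it was 0.073 without endfeet library 6 (adjusted p = 0.925), so that its sign is not settled. The summed level of 6 neuron markers, most of it from Snap25, was 3341 to 3890 normalized CPM in whole astrocyte libraries and 925 to 1879 in endfeet libraries, and 3 of the 6 were lower while the other 3 did not pass the test. Their part in the level of Serpini1 was not tested.

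Serpind1 encodes heparin cofactor II, a serpin that inhibits thrombin once a glycosaminoglycan is bound, and lies at chr16:17331371-17343575. The normalized CPM was 3.11, 6.56 and 6.04 in whole astrocyte libraries, and 29.5 at the lowest (library 4), 44.1 at the median and 151 at the highest (library 1) in endfeet libraries. Every endfeet library was above every whole astrocyte library, and library 1 lay far above the other endfeet libraries. The log2 fold change was 3.59 (SE 0.654, adjusted p = 9.6e-04), and it was 3.10 to 3.77 with single libraries left out. The whole gene, 12205 bases, lies within Pi4ka on the opposite strand, and the strand setting of the counting is not given in the sources used here, so that reads of the 2 genes cannot be told apart with certainty. Pi4ka had 4596 to 5874 raw counts in whole astrocyte libraries and 244 to 1687 in endfeet libraries. These counts are not scaled to the depth, which was far lower in endfeet libraries, so they do not show a lower level of Pi4ka there. The part of Pi4ka reads in the level of Serpind1 was not tested.

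Serpinf1, at chr11:75409769-75422701, encodes pigment epithelium-derived factor, a secreted serpin that does not inhibit proteases. The normalized CPM was 6.0, 8.07 and 6.63 in whole astrocyte libraries, and 34.7 at the lowest (library 6), 111 at the median and 190 at the highest (library 5) in endfeet libraries. The groups did not overlap. The means were 6.90 ± 1.06 (SD, n = 3) and 111 ± 52.2 (SD, n = 6), a 16.1-fold ratio, and the log2 fold change was 4.01 (SE 0.537, adjusted p = 9.29e-05).

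F2r encodes protease-activated receptor 1, the main receptor for thrombin, at chr13:95601803-95618487. Its normalized CPM was 11.4, 7.15 and 7.99 in whole astrocyte libraries, and 35.2 at the lowest (library 6), 52.3 at the median and 72.2 at the highest (library 1) in endfeet libraries. The endfeet libraries were all higher, and they spread only 2.05-fold among themselves, as against 5.35-fold for Plat. The log2 fold change was 2.57 (SE 0.440, adjusted p = 6.1e-04), a 5.94-fold ratio of the means.

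F3 encodes tissue factor, the membrane receptor for factor VII that starts coagulation, and lies at chr3:121723537-121735048. The normalized CPM was 108, 93.7 and 106 in whole astrocyte libraries, and 33.6 at the lowest (library 4), 53.5 at the median and 67.7 at the highest (library 1) in endfeet libraries. Every endfeet library was below every whole astrocyte library. The means were 103 ± 7.96 (SD, n = 3) and 52.3 ± 14.1 (SD, n = 6), and the log2 fold change was -0.97 (SE 0.317, adjusted p = 0.0301). The call was lost without whole astrocyte library 1, 2 or 3 (adjusted p = 0.140, 0.0847 and 0.115), without endfeet library 2 (0.0706), and with counts summed over transcripts (0.0530).

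Divided by the exonic length of the transcript counted for each gene, the members can be set in order of level. In whole astrocyte TRAP, Serpine2 came first with 131 normalized CPM per kb, then F3 with 54.9 and Serpini1 with 11.5, and the ranges of these 3 did not overlap. Serpinf1, Plat, F2r and Serpind1 followed between 3.77 and 2.39, and neighbours among them overlapped. Plaur (0.195) and Plau (0.104) came last. In endfeet TRAP, Serpine2 was again first with 276 ± 130 (SD, n = 6) per kb, and Plat had moved from the fifth to the second place with 94.8 ± 50.2. Serpinf1 (60.6), Serpind1 (28.7), F3 (27.9), F2r (15.7) and Serpini1 (10.1) followed, and Plau (1.87) and Plaur (0.988) were again last. Every pair of neighbours overlapped in range there, yet within each library Serpine2 was above Plat in 6 of 6 and F3 above F2r in 6 of 6, while Serpind1 was above F3 in 1 of 6.

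**Figure D2:**
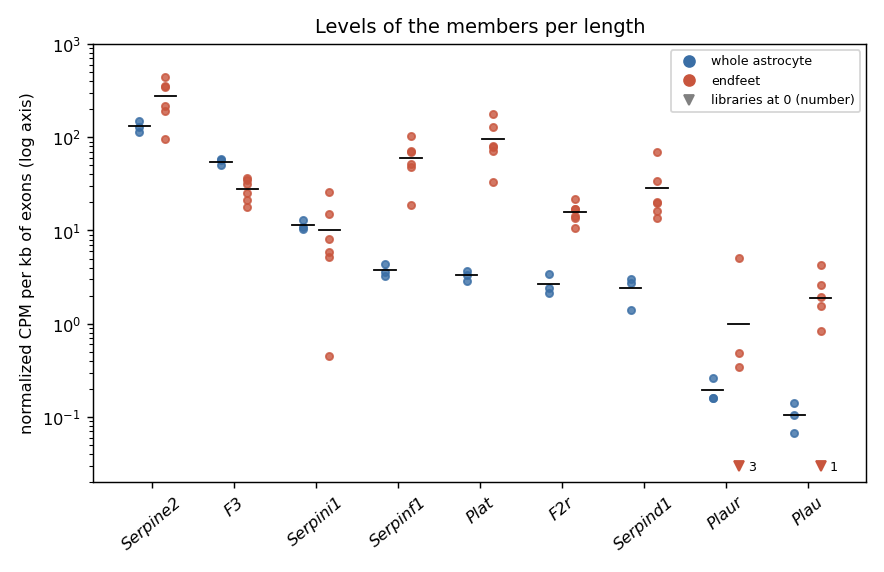
Normalized CPM per kb of exons (log axis) of the 9 members, ordered by their whole astrocyte mean, with a point for each library, a line at the group mean and a triangle with the number of libraries at 0. Plat moves from 3.30 in whole astrocyte TRAP to 94.8 in endfeet TRAP, next below Serpine2, whereas F3 falls from 54.9 to 27.9.

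The activator was also set against its inhibitors within each library, a ratio that does not depend on the scaling between libraries. The log2 ratio of Plat to Serpine2, each as CPM + 0.1, was -5.10 ± 0.20 (SD, n = 3) in whole astrocyte TRAP and -1.36 ± 1.04 (SD, n = 6) in endfeet TRAP, so Serpine2 counts exceeded Plat counts in every library and by less in endfeet. The difference was 3.74 (two-sided exact permutation test over 84 splits, p = 0.0119, adjusted over 3 ratios p = 0.0179), and 6 of 6 endfeet libraries were above all whole astrocyte libraries. The log2 ratio of Plat to Serpini1 was -2.48 ± 0.34 (SD, n = 3) and 3.10 ± 1.87 (SD, n = 6), a change of sign in 6 of 6 endfeet libraries (difference 5.58, exact permutation p = 0.0119, adjusted p = 0.0179). The p of 0.0119 is the smallest these splits can give.

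The log2 ratio of Plau to Plaur was -0.21 ± 0.67 (SD, n = 3) in whole astrocyte TRAP and 2.62 ± 2.63 (SD, n = 6) in endfeet TRAP. Only 4 of 6 endfeet libraries were above the whole astrocyte libraries, and in endfeet library 1 both mRNAs were at 0. The difference of 2.83 did not pass the test (exact permutation p = 0.143, adjusted p = 0.143). It was 1.39 with a pseudocount of 1 CPM and 4.10 with endfeet libraries 4 to 6 only. Without a whole astrocyte library the adjusted p of both Plat ratios was 0.0536, the lowest that 28 splits allow with 2 of 3 ratios at the smallest p, so that no call could be made.

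**Figure D3:**
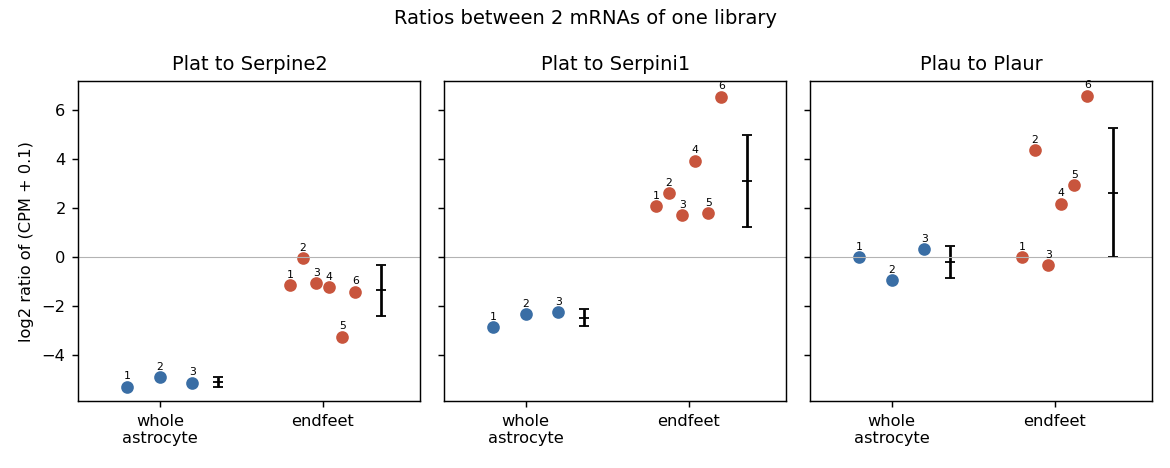
The log2 ratio of 2 mRNAs within a library, each as CPM + 0.1, for Plat to Serpine2, Plat to Serpini1 and Plau to Plaur, with whole astrocyte libraries in blue, endfeet libraries in red, library numbers, and the mean and SD in black. Both Plat ratios are higher in all 6 endfeet libraries, and the line at 0 marks equal counts.

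The other genes of the pathway were taken from 57 genes in 7 lists, of which 36 passed the filter. Of these 22 were higher in endfeet TRAP and 0 lower, 14 did not pass the test, and the median log2 fold change was 2.84, beside 20.7% of all genes tested higher, 13.9% lower and a median of 0.0965. Some of the 22, among them Vwf and F2rl1, passed the filter only through endfeet libraries. DESeq2 called 2 of the list lower, where it called 15.7% of all genes lower, and limma voom 3, where it called 31.1%. Plg, which encodes plasminogen itself, had 0 counts in every library, as had the fibrinogen genes Fga, Fgb and Fgg.

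Among the 4 tested genes that bind plasminogen at the surface or act in the contact system, Anxa2, an annexin that binds plasminogen and tissue plasminogen activator, rose by 1.69 on the log2 scale (SE 0.401, adjusted p = 0.00558). Its partner S100a10 and the plasminogen receptor Plgrkt, both named after their values were seen, were below all whole astrocyte libraries in every endfeet library without passing the test. S100a10 changed by -2.28 on the log2 scale (SE 0.882, adjusted p = 0.0615), with 54.1 to 69.5 normalized CPM in whole astrocyte and 0.188 to 25.4 in endfeet libraries. The value for Plgrkt was -1.06 (SE 0.488, adjusted p = 0.112). Both passed as lower with DESeq2 (adjusted p = 0.0385 for S100a10 and 0.0286 for Plgrkt), with endfeet libraries 4 to 6 only (0.0481 and 0.0325) and with limma voom (0.00303 and 0.0232). S100a10 also passed without endfeet library 1 (0.0249), and Plgrkt with at least 10 counts in every library (0.0299). Neither passed in edgeR with the size factors of DESeq2 (adjusted p = 0.0598 for S100a10 and 0.122 for Plgrkt). Both also missed the threshold with a filter of 1 count in total (0.0616 and 0.0967). The same held with the series of file numbers as a covariate (0.143 and 0.0945) and counts summed over transcripts (0.0666 and 0.0978). No other single library left out brought a call. Endfeet libraries 1 and 6 held only 1 and 2 raw counts of S100a10.

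Inhibitors of plasmin and of the contact proteases other than the members were higher in 2 of 3 tested genes: Serping1, the C1 inhibitor, by 4.39 (adjusted p = 1.1e-06) and A2m, alpha-2-macroglobulin, by 5.10 (adjusted p = 8.65e-04) on the log2 scale. All 7 genes listed as clearance receptors were higher. Among them were Lrp1, the receptor that takes up tissue plasminogen activator bound to its inhibitors, by 4.07 (adjusted p = 2.22e-05), Mrc2 by 6.60 and Igf2r by 3.65. Of the coagulation factors and their control 7 of 9 were higher, with Vwf, the von Willebrand factor of endothelial cells, at 11.17, F5 at 7.59 and Tfpi, the inhibitor of tissue factor, at 5.26. Tfpi thus rose where F3 fell. F2rl1, protease-activated receptor 2, had 0 counts in all whole astrocyte libraries and was higher in endfeet (adjusted p = 0.00147). Its endfeet mean of 9.89 normalized CPM was at least 131-fold higher, taking 3 counts in each whole astrocyte library as the floor. The endfeet libraries ran from 0.563 to 22.2, and libraries 1 and 6 held only 3 raw counts each.

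Of the substrates and binding partners 2 of 5 were higher, Vtn, vitronectin, by 5.80 and Thbs1, thrombospondin 1, by 5.09 on the log2 scale. Of the other serpins 2 of 7 were higher, a share near the 20.7% of all genes tested, namely Serpinh1, the collagen chaperone, by 3.76 and Serpina3n by 2.81. The adjusted p of these 4 genes was at most 0.00101. The other 5 serpins tested did not pass the test.

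**Figure D4:**
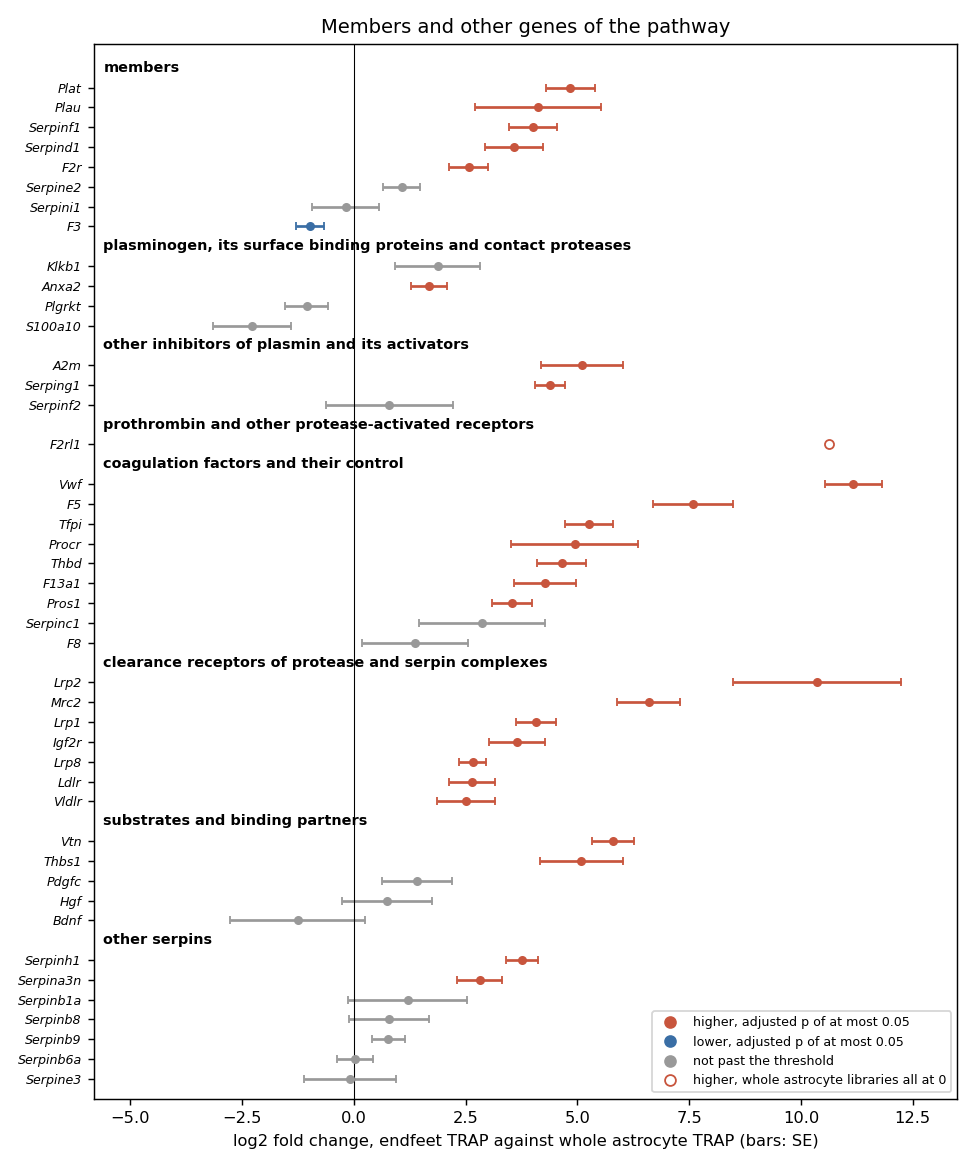
The log2 fold change of endfeet against whole astrocyte TRAP, with its SE, for the 8 tested members and the 36 tested genes of the pathway lists. Red marks genes higher and blue genes lower at an adjusted p of at most 0.05, grey marks the rest, and the open symbol is F2rl1, whose whole astrocyte counts were all 0 so that its fitted value has no scale.

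Markers of vessel cells moved in the same direction as the higher members. The summed level of 8 endothelial markers was 5.05 to 5.46 normalized CPM in whole astrocyte and 2481 to 4129 in endfeet libraries, that of 8 mural markers 33.6 to 36.4 and 3528 to 8036, and that of 6 fibroblast markers 22.4 to 29.999 and 670 to 1252. All 22 of these markers were higher, and apart from Ly6c1, at 0 in the 3 whole astrocyte libraries, and Abcc9, at 0 in 1 of them, each had counts in all libraries. Some of the 22, among them Emcn and Kcnj8, passed the filter only through endfeet libraries. Of the microglia and macrophage markers 4 of 7 were higher (16.2 to 19.5 against 192 to 322), of the ependymal and choroid plexus markers 5 of 6 (45.9 to 1427 against 6641 to 88538, the highest in endfeet library 1), and of the blood markers all 4 tested (1.41 to 2.26 against 38.6 to 128). Most of the ependymal and choroid plexus sum came from Ttr in every library. Of its 6 markers 4 had all endfeet libraries above all whole astrocyte libraries, while Foxj1 was higher with overlap and Ccdc153 did not pass the test. The 5 oligodendrocyte markers did not pass the test (178 to 219 against 132 to 361).

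Astrocyte markers were present in all libraries, with a summed level of 22057 to 24108 normalized CPM in whole astrocyte and 9507 to 29405 in endfeet libraries, and of the 8 Aqp4 was higher, Aldoc, Aldh1l1 and Sox9 were lower and 4 did not pass the test. Most of the sum came from Aldoc (means of 10875 in whole astrocyte and 681 in endfeet TRAP) and Slc1a2 (8043 and 15307, not past the test). The overlap of the sums therefore does not show a like astrocyte content. The part of these cell types in the levels of Plat, Plau, Serpind1, Serpinf1 and F2r was not tested. In such bulk samples fewer cells of a type and less RNA per cell cannot be told apart. Endfeet library 1, which had the highest ependymal and choroid plexus sum, was also the highest endfeet library for Plat, Serpine2, Serpini1, Serpind1, F2r and F3. Without it the calls of Plat, Plau, Serpind1, Serpinf1, F2r and F3 remained, with a log2 fold change of 4.56 for Plat and 3.10 for Serpind1. The ependymal and choroid plexus sum was still 6641 to 39178 in the other endfeet libraries. Leaving out library 1 therefore does not test the part of these cells.

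**Figure D5:**
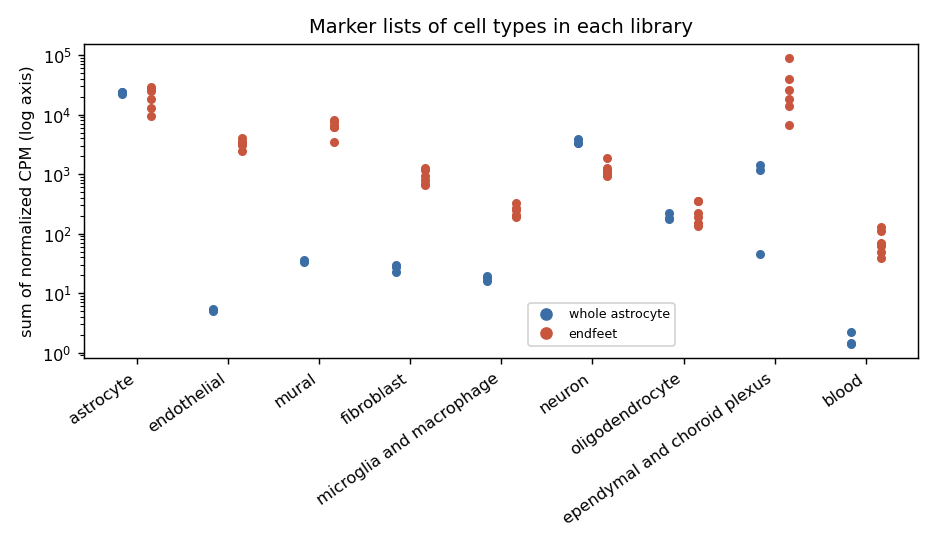
Summed normalized CPM (log axis) of 9 marker lists in the 3 whole astrocyte (blue) and 6 endfeet (red) libraries, a point for each library. Endothelial, mural and fibroblast sums are higher in every endfeet library, whereas the astrocyte sums, most of them from Aldoc and Slc1a2, overlap between 22057 and 24108 in whole astrocyte and 9507 and 29405 in endfeet libraries.

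For each tested member the 3 genes with the most similar pattern over the 9 libraries were looked up, by the root mean square difference of log2(CPM + 1) after centring each gene on its own mean. F3 lay nearest to Rbbp7 (0.148), Hadha and Phb2, and F2r nearest to Ptprf (0.171), Adgrl2 and Man2a2. Plat lay nearest to Pclo (0.315), Trpv4 and Lbr, Serpinf1 to Islr (0.276), Dse and Ccn2, and Serpind1 to Ifnar2 (0.321), Bmf and Bmp7. Serpine2 lay nearest to Gm5499 (0.245), Adgrl3 and Mlc1, Serpini1 to Igfbp6 (0.301), Kcnc1 and Sugp1, and Plau to Med12 (0.238), Jak3 and St14.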

How the data were processed

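RNA bound to GFP-tagged ribosomes was sequenced in 3 whole astrocyte and 6 endfeet TRAP libraries, after amplification with an Ovation kit. The authors mapped the reads on mm10 with Bowtie, discarded those that mapped to several places, and counted the others with HTSeq (0.5.3 per the labels). The files as deposited hold raw counts of 75466 Ensembl transcripts without normalization, and the strand setting of the counting is not given in the sources used here. Genes that share sequence with others lose reads in this way, and genes that overlap on opposite strands cannot be told apart.

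Transcript IDs were looked up in GENCODE M21 (73164 matched in 22092 genes, 2302 not), and each gene was represented by the transcript with the highest CPM summed over libraries. The groups were compared with edgeR 4.0.16 (TMM, filterByExpr, glmQLFit, glmQLFTest) under R 4.3.3, p-values being adjusted by Benjamini-Hochberg over all genes tested, at a threshold of 0.05. The SE of a log2 fold change was its absolute value over the square root of the test statistic F. The 95% interval was 1.96 SE on either side. Ratios were tested by exact permutation of the libraries (two-sided). Counts of members and lists were set beside those of all genes, without a set test. The tests were tested on simulated data. Other steps used pandas 2.3.3, numpy 2.4.6 and Python 3.11.15.

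Alternatives were DESeq2 1.42.0 (Wald test), edgeR with the size factors of DESeq2, a filter of 1 count in total or of 10 counts per library, endfeet libraries 4 to 6 only (their file numbers run with those of the whole astrocyte libraries), this series of numbers as a covariate, the replicate number as a block, group-weighted limma voom (3.58.1), counts summed over transcripts, a minimum log2 fold change of 1 in size, a pseudocount of 1 CPM in the ratios and each library left out. The alternatives to the Serpine2 isoform share were chosen after seeing the data. The members and lists were chosen with earlier results of these data known. All members are named, and of each pathway list the genes past the threshold without overlap between the groups, at most 3 in each direction by size of log2 fold change. S100a10, Plgrkt, Plg, Fga, Fgb, Fgg and Pi4ka were named after their values were seen. The values of 1 gene of the pathway lists are not reported here. Same-numbered libraries did not deviate together (correlations -0.0339, 0.00849 and 0.0716), so their numbers were not taken as pairs. The methods of the study describe separate brains and separate pools, but the p-values measure only the spread between these libraries.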

Additional observations from a re-analysis of the deposited data

Results flagged for a closer look

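In endfeet TRAP, Plaur in library 3 and Serpind1 in library 1 stood apart from the other endfeet libraries. The gap to the next library was 0.906 of the range for Plaur (117 raw counts, against at most 9 in the other endfeet libraries) and 0.637 for Serpind1 (151 normalized CPM, against at most 73.7 in the others), above the critical value of Dixon's test for 6 libraries. For normally distributed values chance gives about 1 such library in 20 groups, and 12 groups were looked at. Normalized CPM need not be so distributed, and Plaur was at 0 in endfeet libraries 1, 2 and 6, so this rate is only a guide. Without endfeet library 1 Serpind1 still passed the test (edgeR, adjusted p of at most 0.00843 with any single library left out). Plaur had no call to lose.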

How the results depend on the processing

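Plat, Serpind1, Serpinf1 and F2r kept their direction and passed the test in all 9 alternative fits and with each library left out. Adjusted p ranged from 5.34e-23 to 9.51e-04 for Plat over the alternatives. Of the members 4 to 6 were higher under the alternatives and 4 to 6 with single libraries left out. The number lower was 0 with the replicate block, with counts summed over transcripts and with a minimum log2 fold change of 1 in size, and 0 to 1 with single libraries left out. Of the pathway list 15 to 24 were higher under the alternatives and 21 to 23 with libraries left out. The number lower was 2 with DESeq2, 1 with at least 10 counts in every library, 2 with endfeet libraries 4 to 6 only and 3 with limma voom, and 0 to 1 with libraries left out. Over all genes 1875 to 3380 were higher and 1172 to 2642 lower with libraries left out, and limma voom called 4494 lower, against 2007. The log2 ratio of Plat to Serpine2 differed by 3.14 with endfeet libraries 4 to 6 only, and that of Plat to Serpini1 by 6.57, both with an adjusted exact permutation p of 0.1, where 20 splits allow no p below 0.05. With libraries left out the differences were 3.48 to 4.12 and 4.90 to 5.87, and that of Plau to Plaur was 2.03 to 3.42.

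With the replicate block, which the numbers do not support as a pairing, the log2 fold change of Serpini1 turned to 0.37 (adjusted p = 0.574), as it did without endfeet library 6 (0.073), whereas it was -1.68 with endfeet libraries 4 to 6 only and -1.54 with their series as a covariate. With libraries left out it was -0.71 to 0.073. Under the block Plau (log2 fold change 2.64, adjusted p = 0.290) and F3 (-0.92, adjusted p = 0.0879) no longer passed the test. The causes were not tested. The endfeet libraries, with 0.197 to 1.37 normalized CPM for 3 counts, limit what can be said of Plau and Plaur.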

Other observations

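Reads on a second Serpine2 transcript, Serpine2-202, which retains an intron (2315 nt, 3 exons), were looked at after the gene counts. Its counts, as a percentage of those of Serpine2-201, were 16.3, 14.2 and 18.5 in whole astrocyte libraries and between 6.20 and 9.57 in endfeet libraries. The groups did not overlap, with means of 16.4 ± 2.17 (SD, n = 3) and 7.67 ± 1.195 (SD, n = 6) and a difference of -8.69 percentage points (two-sided exact permutation p = 0.0119, adjusted over 3 transcripts p = 0.0357). Of 1752 such transcript pairs in all genes, endfeet libraries were below in every library in 127 (7.25%) and above in 90 (5.14%). Reads in exons shared by both transcripts are counted on each, so the percentage is not a share of molecules. With endfeet libraries 4 to 6 only the difference was -8.64 (exact permutation p = 0.1), and with single endfeet libraries left out it was -9.07 to -8.40. The corresponding percentages of Serpini1-202 (3.66 ± 0.32 and 6.16 ± 8.22, exact permutation p = 0.75, n = 3 and n = 6) and Serpini1-203 (5.89 ± 0.12 and 4.88 ± 4.23, exact permutation p = 0.714, n = 3 and n = 6) did not pass the test.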
